A study of Mus musculus with 12 samples.

Results

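The 10 genes of lipid uptake, lipid transfer and fatty acid binding described here in mouse liver are Cd36, Vldlr, Slc27a2, Mfsd2a, Lpl, Lipc, Pltp, Fabp1, Fabp2 and Fabp5. They were chosen by symbol, which mapped each to 1 Ensembl gene identifier, and are 10 of the 51912 identifiers in the count table. Earlier results of these data were known when they were chosen, so shares of members set beside all genes are description only. RNA came from 12 livers in 4 groups of 3: Mlkl-/- mice on a high-fat diet (HFD), wild-type mice on HFD, Mlkl-/- mice on normal chow (ND) and wild-type mice on ND. Animals started the diet at 8 to 9 weeks of age. The HFD held 36% fat and drew 59% of its energy from lipid, and livers were taken from fed animals that had been selected by mean organ weights. Feeding lasted 25 weeks by the sample labels and 16 to 25 weeks by the text of the series. Mlkl-/- mice lack MLKL, the pseudokinase that carries out necroptosis, a lytic form of cell death. Strain, sex and litter were not stated in what was used here. P-values measure the spread between these selected animals only, and what the selection did to that spread was not tested.

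The liver takes up fatty acids and lipoprotein lipid through proteins at the hepatocyte surface and through enzymes that act on lipoproteins in the blood. CD36 is a scavenger receptor that binds long-chain fatty acids and oxidised lipoproteins, and VLDLR binds triglyceride-rich lipoproteins. Lipoprotein lipase (Lpl) and hepatic lipase (Lipc) release fatty acids from lipoproteins, and PLTP moves phospholipid between lipoprotein particles. Inside the cell, fatty acid binding proteins carry the water-insoluble fatty acids. Healthy adult liver is rich in FABP1 and makes little Vldlr and Lpl, and Cd36 and Vldlr are known to rise in fatty liver of mice.

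Libraries held 19435391 to 32120426 counts, and a CPM value (counts scaled to a library of 1000000 counts) below is scaled by TMM factors of 0.922 to 1.16. Sequencing read the 3' ends of transcripts. Mlkl itself was counted 9 to 34 times in the 6 Mlkl-/- libraries, against 72 to 252 times in the 6 wild-type libraries, and no library went against its genotype label. Where the allele is deleted was not stated, so the 3' reads that remain may come from outside the deleted stretch. The hepatocyte markers Alb, Ttr, Apoa1 and 8 others summed to 61945 to 121103 CPM in the 12 libraries. Mlkl-/- HFD replicate 2 stood apart: 5 skeletal muscle genes, Myh4, Acta1, Ckm, Tnnt3 and Myl1, summed to 253 CPM there, against 1.15 to 7.18 CPM in the 11 other libraries. A set of 8 loci, made up of Lars2, a microRNA locus and predicted genes with no name, split the libraries into 2 classes at the largest gap in its sum. The set summed to 3484 to 9239 raw CPM in 6 libraries (the 3 Mlkl-/- HFD livers, replicates 2 and 3 of wild-type HFD, and replicate 1 of Mlkl-/- ND). It summed to 378 to 656 raw CPM in the other 6. In bulk tissue, fewer cells of a type and less RNA per cell cannot be told apart.

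The high-fat diet raised 5 of the 10 genes when its effect was averaged over the genotypes: Vldlr, Pltp, Cd36, Fabp2 and Mfsd2a. The other 5, namely Fabp1, Fabp5, Slc27a2, Lpl and Lipc, did not pass the test. With a term in the fit for the higher or lower class of the libraries at the 8 loci, 3 were called, and Cd36 and Mfsd2a were not (adjusted p = 0.104 and 0.111). Their log2 differences were 2.05 and 1 in that fit, against 1.66 and 1.02 without the term. Most HFD livers were of the higher class and most ND livers of the lower class. Among all genes, 122 were called with the term and 1302 without it. In the fit without the term, Vldlr had the highest fold, 6.65, followed by Pltp at 4.94, Cd36 at 3.16, Fabp2 at 2.67 and Mfsd2a at 2.02. A gene was called at an adjusted p under 0.05 in edgeR's quasi-likelihood test, with Benjamini-Hochberg adjustment over 18098 genes, of which 7.19% were called in this comparison, 3.57% higher and 3.62% lower. All 10 members passed the filter on low counts. Their median log2 difference was 0.72, against -0.01 for all genes tested.

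Within Mlkl-/- livers the diet raised 4 members, Vldlr, Pltp, Mfsd2a and Fabp2, where 0.359% of all genes tested were called, 0.210% higher and 0.149% lower. Within wild-type livers it raised 4 members as well, Pltp, Vldlr, Cd36 and Fabp2, where 4.23% of genes were called, 2.02% higher and 2.21% lower. Members' median log2 differences were 1.13 in Mlkl-/- livers and 0.39 in wild-type livers, against -0.02 and -0.01 for all genes tested. Of the members, 0 were called lower on HFD in either genotype. The diets did not overlap for 6 members higher and 1 lower in Mlkl-/- livers, beside 8.02% and 7.49% of all genes tested, and for 4 higher and 0 lower in wild-type livers, beside 14.0% and 15.2%. Pltp, Vldlr and Fabp2 were thus called in both genotypes, Mfsd2a in Mlkl-/- livers and Cd36 in wild-type livers. Neither Cd36 nor Mfsd2a was called in the test of the difference between the genotypes' diet effects, described further on.

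**Figure D1:**
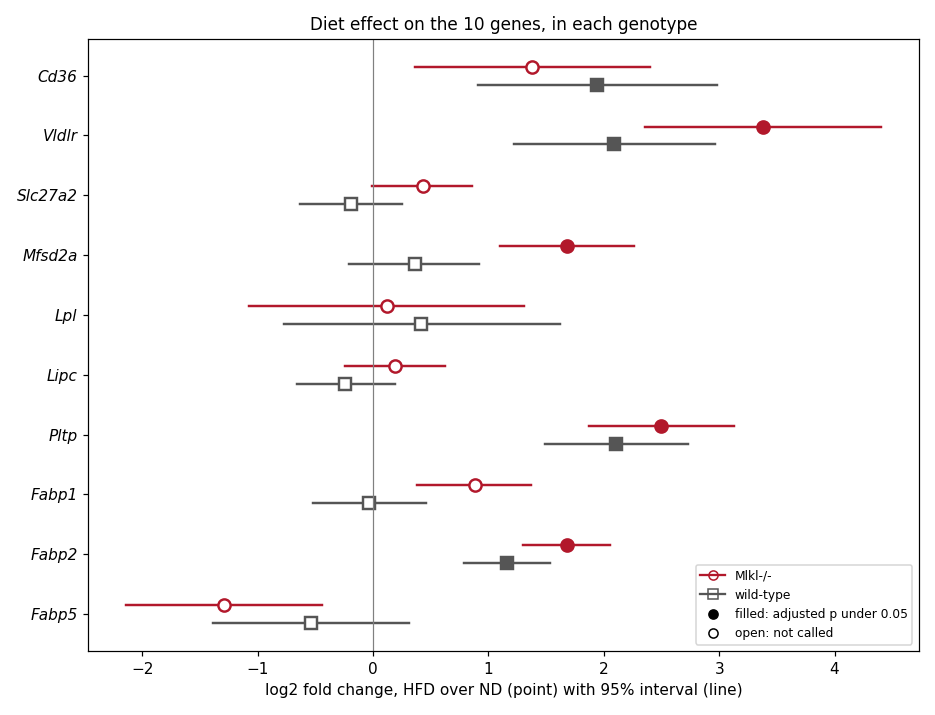
Log2 difference between HFD and ND livers (horizontal axis) for the 10 genes (vertical axis), in Mlkl-/- and in wild-type livers, with bars for the 95% interval of the edgeR fit; filled points are called. Vldlr, Pltp, Fabp2 and Cd36 lie above 1 on the log2 scale in both genotypes, with Cd36 called in wild-type livers only. The intervals of Lpl and Lipc include 0 in both genotypes.

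Among the surface receptors and transporters, Vldlr showed the largest diet difference. Vldlr (ENSMUSG00000024924, mm10 chromosome 19, 27216484 to 27254231, plus strand) encodes the very low density lipoprotein receptor. Vldlr stood at 6.15, 2.31 and 3.05 CPM in Mlkl-/- livers on HFD, against 0.147, 0.575 and 0.355 CPM in Mlkl-/- livers on ND. Vldlr stood at 5.80, 8.76 and 4.29 CPM in wild-type livers on HFD, against 1.54, 1.72 and 1.21 CPM in wild-type livers on ND. All 6 HFD livers lay above all 6 ND livers, and the Mlkl-/- ND livers were the lowest group. The log2 differences were 3.38 ± 0.48 in Mlkl-/- livers (SE, adjusted p = 0.00654) and 2.09 ± 0.41 in wild-type livers (adjusted p = 0.0148). The Mlkl-/- ND values rest on 3, 13 and 9 counts, so the size of the fold in that genotype is imprecise. The call in Mlkl-/- livers was lost without Mlkl-/- ND replicate 3 (adjusted p = 0.058). In wild-type livers it was lost without any 1 of wild-type ND replicates 1 to 3 or without wild-type HFD replicate 2, with adjusted p from 0.0523 to 0.0876. Averaged over the genotypes it held in all 12 fits with 1 library left out.

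Cd36 (ENSMUSG00000002944, mm10 chromosome 5, 17781690 to 17888801, minus strand) encodes the fatty acid receptor CD36. Cd36 reached 121, 42.4 and 147 CPM in Mlkl-/- livers on HFD, against 24.1, 49.9 and 45.3 CPM in Mlkl-/- livers on ND. Cd36 reached 260, 325 and 159 CPM in wild-type livers on HFD, against 61.3, 51.7 and 80.4 CPM in wild-type livers on ND. The wild-type groups did not overlap, and the Mlkl-/- groups overlapped through HFD replicate 2, the library with muscle RNA, which lay below 2 ND livers. In Mlkl-/- livers the log2 difference was 1.38 ± 0.46 (SE, adjusted p = 0.231), and without HFD replicate 2 it was 1.77 (adjusted p = 0.0395). In wild-type livers Cd36 rose by 1.94 ± 0.46 (SE, adjusted p = 0.0471). The wild-type call stood near the threshold. It was lost with no filter on low counts (1.95, adjusted p = 0.102) and with the term for the 8 loci (2.31, adjusted p = 0.0884). With a term for the level of a code in the sample titles, described further on, the call was lost too (1.82, adjusted p = 0.0522). It held in 4 of 12 fits that each left out 1 library, with adjusted p from 0.00771 to 0.175. The fits that lost it left out 1 of wild-type ND replicates 1 to 3, wild-type HFD replicates 1 and 2, Mlkl-/- ND replicates 2 and 3 or Mlkl-/- HFD replicate 1. Averaged over the genotypes, the Cd36 call held in all 12 such fits, with adjusted p from 0.000956 to 0.047.

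Mfsd2a (ENSMUSG00000028655, mm10 chromosome 4, 122946850 to 122961188, minus strand) encodes a transporter that takes up lysophosphatidylcholine, including the form that carries docosahexaenoic acid. Mfsd2a stood at 150, 174 and 81.6 CPM in Mlkl-/- livers on HFD, against 44.5, 31.1 and 50.9 CPM in Mlkl-/- livers on ND. Mfsd2a stood at 144, 123 and 153 CPM in wild-type livers on HFD, against 97.1, 140 and 90.4 CPM in wild-type livers on ND. The Mlkl-/- groups did not overlap and the wild-type groups did. Mfsd2a rose by 1.68 ± 0.27 on the log2 scale in Mlkl-/- livers (SE, adjusted p = 0.0246), a call that held in 9 of 12 fits with 1 library left out. It was lost without Mlkl-/- HFD replicate 1 (adjusted p = 0.0847), Mlkl-/- ND replicate 2 (adjusted p = 0.0736) or Mlkl-/- ND replicate 3 (adjusted p = 0.061). In wild-type livers the difference was 0.36 ± 0.26 (adjusted p = 0.492).

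Slc27a2 (ENSMUSG00000027359, mm10 chromosome 2, 126552407 to 126588243, plus strand) encodes FATP2, which is both a fatty acid transporter and a very long-chain acyl-CoA synthetase. Slc27a2 stood at 1445, 1858 and 1162 CPM in Mlkl-/- livers on HFD, against 1096, 1150 and 1075 CPM in Mlkl-/- livers on ND. Slc27a2 stood at 1423, 1016 and 1316 CPM in wild-type livers on HFD, against 1459, 1721 and 1103 CPM in wild-type livers on ND. The Mlkl-/- groups did not overlap, but the log2 difference of 0.43 ± 0.20 was not called (SE, adjusted p = 0.376). In wild-type livers the groups overlapped, with a difference of -0.19 ± 0.20 (adjusted p = 0.663). Its exons overlap those of the antisense gene Gm26697, and whether the counting used strand was not stated.

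Of the proteins that act on lipoproteins in the blood, the lipid transfer protein changed and the lipases did not pass the test. Pltp (ENSMUSG00000017754, mm10 chromosome 2, 164839518 to 164857711, minus strand) encodes phospholipid transfer protein. Pltp reached 83.1, 73.2 and 123 CPM in Mlkl-/- livers on HFD, against 17.6, 18.2 and 13.7 CPM in Mlkl-/- livers on ND. Pltp reached 119, 197 and 105 CPM in wild-type livers on HFD, against 42.5, 23 and 31.8 CPM in wild-type livers on ND. All 6 HFD livers lay above all 6 ND livers. Pltp rose by 2.50 ± 0.29 on the log2 scale in Mlkl-/- livers (SE, adjusted p = 0.00536) and by 2.11 ± 0.29 in wild-type livers (adjusted p = 0.00538), and both calls held in all 12 fits with 1 library left out. Pltp exons overlap exons of Ctsa, the cathepsin A gene on the opposite strand. Ctsa differed by 0.26 on the log2 scale between HFD and ND in Mlkl-/- livers (adjusted p = 0.467) and by 0.36 in wild-type livers (adjusted p = 0.181).

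Lpl (ENSMUSG00000015568, mm10 chromosome 8, 68880491 to 68907448, plus strand) encodes lipoprotein lipase, which splits triglyceride of chylomicrons and very low density lipoproteins. Lpl stood at 11.5, 53.2 and 27.2 CPM in Mlkl-/- livers on HFD, against 13.3, 35.8 and 35.4 CPM in Mlkl-/- livers on ND. Lpl stood at 26.0, 42.8 and 28.2 CPM in wild-type livers on HFD, against 20.7, 31.0 and 20.9 CPM in wild-type livers on ND. The diets overlapped in both genotypes, with log2 differences of 0.12 ± 0.53 in Mlkl-/- livers and 0.42 ± 0.53 in wild-type livers (SE, adjusted p = 0.944 and 0.721). The highest value, 53.2 CPM, came from Mlkl-/- HFD replicate 2. Lpl is also a gene of muscle, adipose tissue and macrophages, and the part of muscle RNA in that value was not tested.

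Lipc (ENSMUSG00000032207, mm10 chromosome 9, 70798128 to 70952226, minus strand) encodes hepatic lipase, which acts on remnant particles and high density lipoproteins. Lipc stood at 134, 116 and 78.2 CPM in Mlkl-/- livers on HFD, against 108, 100 and 79.9 CPM in Mlkl-/- livers on ND. Lipc stood at 98.3, 75.0 and 100 CPM in wild-type livers on HFD, against 126, 109 and 86.9 CPM in wild-type livers on ND. The diets overlapped in both genotypes. The 95% intervals of the log2 difference ran from -0.24 to 0.62 in Mlkl-/- livers and from -0.66 to 0.19 in wild-type livers.

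The fatty acid binding proteins did not move as one family. Fabp2 was called higher on HFD in both genotypes, while Fabp1, the abundant liver form, and Fabp5 were called in neither. Fabp2 (ENSMUSG00000023057, mm10 chromosome 3, 122895072 to 122899506, plus strand) encodes the intestinal fatty acid binding protein. Fabp2 reached 194, 127 and 152 CPM in Mlkl-/- livers on HFD, against 40.2, 58.1 and 50 CPM in Mlkl-/- livers on ND. Fabp2 reached 168, 150 and 168 CPM in wild-type livers on HFD, against 76.2, 63.3 and 78.3 CPM in wild-type livers on ND. All HFD livers lay above all ND livers. Fabp2 rose by 1.68 ± 0.18 on the log2 scale in Mlkl-/- livers (SE, adjusted p = 0.000832) and by 1.16 ± 0.17 in wild-type livers (adjusted p = 0.00538), and both calls held in all 12 fits with 1 library left out. The enterocyte genes Fabp6, Vil1, Sis and Lct summed to 0.0400 to 1.02 CPM over the 12 libraries, and Fabp6 had 0 counts in all of them.

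Fabp1 (ENSMUSG00000054422, mm10 chromosome 6, 71199827 to 71205023, plus strand) encodes the liver fatty acid binding protein. Fabp1 stood at 4188, 2665 and 2207 CPM in Mlkl-/- livers on HFD, against 1688, 1974 and 1268 CPM in Mlkl-/- livers on ND. Fabp1 stood at 2319, 2804 and 2834 CPM in wild-type livers on HFD, against 2960, 2850 and 2320 CPM in wild-type livers on ND. The Mlkl-/- groups did not overlap, and the log2 difference of 0.88 ± 0.23 was not called (SE, adjusted p = 0.114). It was called by edgeR with no filter on low counts (adjusted p = 0.03) and by DESeq2 (adjusted p = 0.0107). In wild-type livers the diets overlapped, with a difference of -0.03 ± 0.23 (adjusted p = 0.963).

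Fabp5 (ENSMUSG00000027533, mm10 chromosome 3, 10012548 to 10016607, plus strand) encodes the epidermal fatty acid binding protein, found in skin, adipose tissue and macrophages among other tissues. Fabp5 stood at 21.0, 54.6 and 25.7 CPM in Mlkl-/- livers on HFD, against 110, 65.9 and 72.1 CPM in Mlkl-/- livers on ND. Fabp5 stood at 14.5, 29.3 and 14.8 CPM in wild-type livers on HFD, against 32.9, 27.5 and 25.5 CPM in wild-type livers on ND. The Mlkl-/- HFD livers all lay below the Mlkl-/- ND livers, and the wild-type groups overlapped. Log2 differences were -1.29 ± 0.38 in Mlkl-/- livers (SE, adjusted p = 0.181) and -0.54 ± 0.38 in wild-type livers (adjusted p = 0.482). Without Mlkl-/- HFD replicate 2, the Mlkl-/- difference was -1.80 (adjusted p = 0.0353), and DESeq2 called it with all libraries (adjusted p = 0.0118). Averaged over the genotypes the difference was -0.92 ± 0.27 (SE, adjusted p = 0.0707). That average was called lower by DESeq2 (-0.91, adjusted p = 0.00357) and by edgeR without Mlkl-/- HFD replicate 2 (-1.16, adjusted p = 0.0072) or without wild-type HFD replicate 2 (-1.13, adjusted p = 0.0349). Fabp5 has processed pseudogene copies, so reads near its 3' end may be shared and its values are uncertain.

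**Figure D2:**
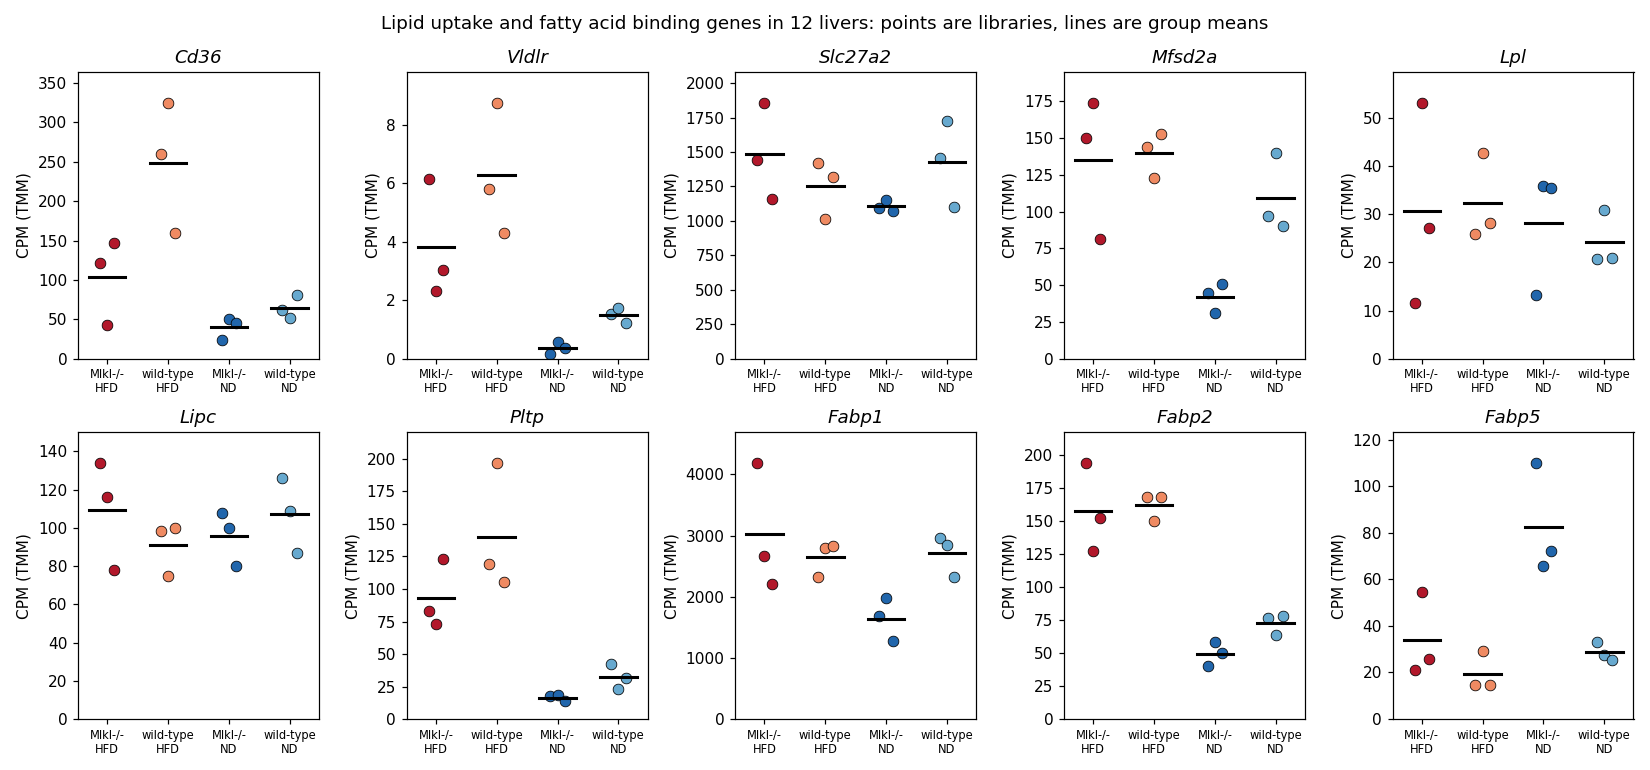
CPM (vertical axes, linear and starting at 0) of each of the 10 genes in the 12 livers, with the groups from left to right Mlkl-/- HFD, wild-type HFD, Mlkl-/- ND and wild-type ND; points are single livers and short bars are group means. In Pltp and Fabp2 every HFD liver lies above every ND liver, and in Fabp5 the Mlkl-/- ND livers hold the top 3 values, 65.9 to 110 CPM.

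The sequences before the start sites of the 5 members called on HFD on average, and of Fabp1, are shown with the letters that nuclear receptors of fatty acid metabolism are known to bind. Promoters came from RefSeq on GRCm38.p6, the assembly that mm10 names, and 8 of the 10 members had an entry. The 250 bases before each start were searched on both strands for AGGTCA with no mismatch, for AGGTCANAGGTCA (the repeat that PPAR and RXR pairs bind) and for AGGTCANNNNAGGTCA (the repeat of LXR and RXR pairs), the repeats with up to 2 mismatches in their 12 fixed letters. Matches may overlap each other. Capitals mark matches. Fabp1, which was not called, is shown because it holds the PPAR-type letters, as Cd36 does. Mfsd2a holds a single AGGTCA, 213 to 208 bases before the start, and Fabp2, Vldlr and Pltp hold none of the 3 patterns in the window. Windows are given without bases that the annotation places in an exon.
Fabp1, chr6:71199629-71199826, plus strand: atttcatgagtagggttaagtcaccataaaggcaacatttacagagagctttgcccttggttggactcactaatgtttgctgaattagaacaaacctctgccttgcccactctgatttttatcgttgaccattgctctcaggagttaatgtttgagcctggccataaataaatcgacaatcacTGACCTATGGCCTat
Fabp2, chr3:122894822-122895071, plus strand: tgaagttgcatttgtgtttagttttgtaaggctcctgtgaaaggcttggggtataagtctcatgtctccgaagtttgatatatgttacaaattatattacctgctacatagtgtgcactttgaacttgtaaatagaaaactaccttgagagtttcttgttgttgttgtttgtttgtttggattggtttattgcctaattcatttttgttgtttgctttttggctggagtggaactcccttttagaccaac
Cd36, chr5:17835897-17836146, minus strand: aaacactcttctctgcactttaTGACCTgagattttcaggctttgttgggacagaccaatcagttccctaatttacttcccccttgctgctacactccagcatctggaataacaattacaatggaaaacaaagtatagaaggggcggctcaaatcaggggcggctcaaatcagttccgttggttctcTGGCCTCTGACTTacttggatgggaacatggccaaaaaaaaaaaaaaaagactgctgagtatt
Mfsd2a, chr4:122961189-122961438, minus strand: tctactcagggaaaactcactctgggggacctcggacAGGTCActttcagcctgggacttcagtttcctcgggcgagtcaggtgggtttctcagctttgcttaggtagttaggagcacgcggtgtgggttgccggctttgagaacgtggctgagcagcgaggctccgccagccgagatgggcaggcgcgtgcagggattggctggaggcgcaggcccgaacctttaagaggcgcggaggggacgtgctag
Vldlr, chr19:27216234-27216483, plus strand: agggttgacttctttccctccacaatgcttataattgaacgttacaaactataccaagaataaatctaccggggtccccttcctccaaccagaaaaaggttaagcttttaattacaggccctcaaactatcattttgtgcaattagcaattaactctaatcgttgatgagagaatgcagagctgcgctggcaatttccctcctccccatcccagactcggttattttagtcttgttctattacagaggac
Pltp, chr2:164857712-164857958, minus strand: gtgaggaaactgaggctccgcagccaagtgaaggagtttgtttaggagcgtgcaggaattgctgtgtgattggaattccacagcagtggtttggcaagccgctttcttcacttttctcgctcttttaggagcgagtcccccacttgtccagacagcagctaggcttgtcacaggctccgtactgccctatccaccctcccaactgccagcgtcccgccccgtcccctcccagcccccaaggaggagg
The Fabp1 match, TGACCTATGGCCT, lies 67 to 55 bases before the RefSeq start and has 1 mismatch, and the Cd36 match lies 63 to 51 bases before the start with 2 mismatches. The Cd36 start used, at 17835896, lies inside the annotated gene, and no window before the 5' end of that gene was searched. The second Lipc promoter, also inside its gene, held a further match with 2 mismatches. Of all 32851 mouse promoters searched, 3.24% held the PPAR-type pattern, 2.57% the LXR-type pattern and 14% the single AGGTCA. No member window held the LXR-type pattern. A match describes letters and not a site in use, and an absent match says only that these letters are not in this window.

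Mlkl-/- livers were next set against wild-type livers on the same diet, which asks whether loss of MLKL went with other levels of these genes. By edgeR, 0 of the 10 members were called on HFD, on ND or averaged over the diets, against 0.0276%, 0.00553% and 0.0166% of all genes tested. At an unadjusted p under 0.05 there were 1, 6 and 6 members, beside 15.5%, 5.51% and 10.6% of all genes tested. By DESeq2, 0 members were called on HFD, 3 on ND (Vldlr, Mfsd2a and Fabp5) and 4 averaged over the diets (Vldlr, Mfsd2a, Pltp and Fabp5). In the same comparisons DESeq2 called 381, 43 and 201 of 30718 genes, a wider set than the 18098 genes tested by edgeR. The genotype differences below are therefore given as values.

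**Figure D3:**
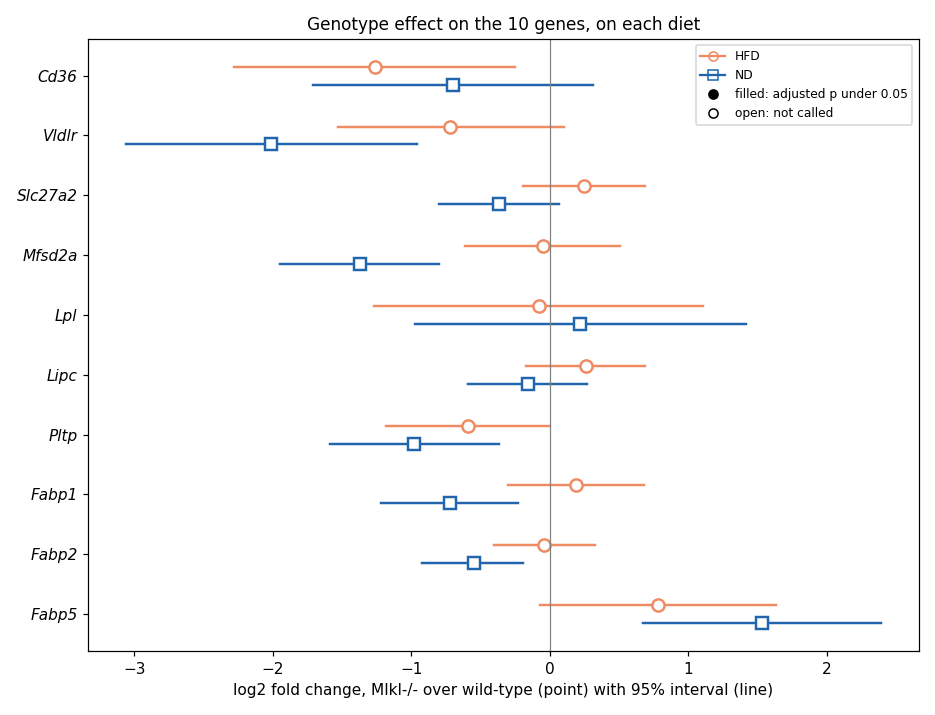
Log2 difference between Mlkl-/- and wild-type livers (horizontal axis) for the 10 genes (vertical axis), on HFD and on ND, with bars for the 95% interval of the edgeR fit; open points are not called. On ND the points run from -2.01 for Vldlr to 1.53 for Fabp5, and none of the 20 differences is called.

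On ND, 7 of the 10 members did not overlap between Mlkl-/- and wild-type livers, 6 lower and 1 higher in Mlkl-/- livers, beside 5.56% and 4.93% of all genes tested. The 6 that lay lower were Cd36, Vldlr, Mfsd2a, Pltp, Fabp1 and Fabp2, and Fabp5 lay higher. Mfsd2a averaged 42.2 ± 10.1 CPM in Mlkl-/- ND livers and 109 ± 27.1 CPM in wild-type ND livers (SD, n = 3 each), a log2 difference of -1.37 ± 0.27 (SE, adjusted p = 0.214). Vldlr averaged 0.359 ± 0.214 CPM in Mlkl-/- ND livers and 1.49 ± 0.257 CPM in wild-type ND livers, a log2 difference of -2.01 ± 0.49 (SE, adjusted p = 0.428). Fabp5 averaged 82.7 ± 23.9 CPM in Mlkl-/- ND livers and 28.6 ± 3.83 CPM in wild-type ND livers, a log2 difference of 1.53 ± 0.39 (SE, adjusted p = 0.55). Members' median on ND was -0.63, against 0 for all genes tested. Mfsd2a was called in 1 of 12 fits with 1 library left out, without Mlkl-/- HFD replicate 3 (adjusted p = 0.0341).

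The other ND differences were smaller. Pltp averaged 16.5 ± 2.45 CPM in Mlkl-/- ND livers and 32.5 ± 9.77 CPM in wild-type ND livers (SD, n = 3 each), a log2 difference of -0.98 ± 0.28 (SE, adjusted p = 0.598). Fabp2 and Fabp1 differed by -0.55 ± 0.17 and -0.72 ± 0.23 on the log2 scale, with adjusted p of 0.624 and 0.631. Cd36 averaged 39.8 ± 13.8 CPM in Mlkl-/- ND livers and 64.5 ± 14.6 CPM in wild-type ND livers, with an adjusted p of 0.954. Lipc, Lpl and Slc27a2 overlapped between the genotypes on ND.

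On HFD, 1 of the 10 members, Cd36, was lower in Mlkl-/- livers without overlap and 0 were higher without overlap, beside 10.8% and 10.6% of all genes tested. Cd36 averaged 103 ± 54.3 CPM in Mlkl-/- HFD livers and 248 ± 83.4 CPM in wild-type HFD livers (SD, n = 3 each), a log2 difference of -1.26 ± 0.45 (SE, adjusted p = 0.24). Mfsd2a averaged 135 ± 47.8 CPM in Mlkl-/- HFD livers and 140 ± 15.6 CPM in wild-type HFD livers, with a 95% interval of the log2 difference from -0.61 to 0.51. Fabp2 averaged 158 ± 33.7 CPM in Mlkl-/- HFD livers and 162 ± 10.5 CPM in wild-type HFD livers, with an interval from -0.40 to 0.33. Members' median on HFD was -0.04, against 0.01 for all genes tested.

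Whether the diet acted differently in the genotypes was tested directly, as the diet difference in Mlkl-/- livers minus that in wild-type livers. By edgeR and by DESeq2, 0 of the 10 members were called, with 0% of all genes called by edgeR and 48 of 30718 genes by DESeq2. By edgeR, 4 members were at an unadjusted p under 0.05, beside 10.4% of all genes tested. Mfsd2a had the lowest p, with a difference of 1.32 ± 0.37 on the log2 scale (SE, unadjusted p = 0.00325, adjusted p = 0.384). The others of these 4 were Fabp1 at 0.91 ± 0.33 (adjusted p = 0.417), Fabp2 at 0.52 ± 0.24 (adjusted p = 0.475) and Slc27a2 at 0.62 ± 0.29 (adjusted p = 0.479). Vldlr was not among them (unadjusted p = 0.0562) and differed by 1.29 ± 0.62 (adjusted p = 0.494). For Cd36 the value was -0.57 ± 0.63 (adjusted p = 0.782), for Pltp 0.39 ± 0.39 (adjusted p = 0.75) and for Fabp5 -0.75 ± 0.54 (adjusted p = 0.656).

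Markers of liver cell types were summed in each library. The 15 macrophage markers summed to 122 to 237 CPM in Mlkl-/- HFD livers and 238 to 421 CPM in wild-type HFD livers, and to 234 to 280 CPM in Mlkl-/- ND livers and 178 to 216 CPM in wild-type ND livers. The 11 endothelial markers summed to 146 to 185 CPM in Mlkl-/- HFD livers and 276 to 425 CPM in wild-type HFD livers, and to 190 to 289 CPM in Mlkl-/- ND livers and 214 to 309 CPM in wild-type ND livers. On HFD both sums were lower in Mlkl-/- livers without overlap, narrowly so for macrophages (at most 237 CPM against at least 238 CPM). Cd36, a gene that macrophages and endothelium also express, was lower in Mlkl-/- livers without overlap on both diets. On ND, however, the macrophage sum was higher in Mlkl-/- livers without overlap, and the endothelial sum overlapped. Of single markers, 2 of the 11 endothelial genes and 0 of the 15 macrophage genes were called lower in Mlkl-/- HFD livers by edgeR. In that comparison 0.0276% of all genes tested were called. At an unadjusted p under 0.05 there were 10 endothelial and 12 macrophage markers, beside 15.5% of all genes tested. Their median log2 differences were -1 and -1.24, against 0.01 for all genes tested. For HFD against ND, 0 macrophage, endothelial, stellate or hepatocyte markers were called in Mlkl-/- livers, beside 0.359% of all genes tested. In wild-type livers 4 of the 15 macrophage markers were called higher on HFD (Gpnmb, Mmp12, Cx3cr1 and Ccr2). So were 1 endothelial marker, Dnase1l3, and 1 stellate marker, Lum, and 2 hepatocyte markers, Fgb and Serpina1c, were called lower. Among all genes tested, 2.02% were called higher and 2.21% lower there. The 10 stellate cell markers summed to 196 to 242 CPM in Mlkl-/- HFD livers, 239 to 470 CPM in wild-type HFD livers, 223 to 289 CPM in Mlkl-/- ND livers and 244 to 290 CPM in wild-type ND livers. The 7 adipose genes other than Car3, which liver also makes, summed to 4.29 to 19.1 CPM in Mlkl-/- HFD livers, 2.80 to 25.2 CPM in wild-type HFD livers, 5.44 to 7.36 CPM in Mlkl-/- ND livers and 8.60 to 13.2 CPM in wild-type ND livers, with Retn at 0 in all Mlkl-/- ND livers. The 11 hepatocyte markers summed to 87027 to 115709 CPM in Mlkl-/- HFD livers, 61945 to 88885 CPM in wild-type HFD livers, 85773 to 121103 CPM in Mlkl-/- ND livers and 112911 to 119277 CPM in wild-type ND livers. Averaged over the genotypes, 3 macrophage, 1 stellate and 1 hepatocyte marker and 1 adipose gene, Adipoq, were called higher on HFD. Called lower were 3 hepatocyte markers, beside 3.57% higher and 3.62% lower of all genes tested. Adipoq differed by 2.74 on the log2 scale (adjusted p = 0.0441). It stood at 0.0800, 3.12 and 3.32 CPM in wild-type HFD replicates 1 to 3. Within either genotype 0 adipose genes were called. The part of these cell types in the members' values was not tested.

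Library differences that the labels do not explain were checked by comparing within them. A code in the sample titles splits the libraries into a lower and a higher level within each group. The codes were 23 and 27 on ND and 25 and 29 on HFD, so no code occurred on both diets. Pairing 23 with 25 as the lower level and 27 with 29 as the higher level is an assumption. Diet differences within a level therefore do not hold the code constant, whereas genotype differences within a diet do. Within the lower level, the HFD minus ND difference on the log2 scale was 2.15 for Pltp, 4.06 for Vldlr, 1.96 for Fabp2, 1.57 for Cd36 and 1.86 for Mfsd2a in Mlkl-/- livers. Within the higher level the same differences were 2.95, 2.54, 1.5, 1.62 and 1.04. In wild-type livers the lower level gave 1.92 for Pltp, 1.78 for Vldlr, 1.28 for Fabp2 and 2.21 for Cd36, and the higher level gave 2.17, 2.26, 1.02 and 1.5. Each of these rests on 1 liver against 2. On ND, the Mlkl-/- minus wild-type difference was -1.39 for Mfsd2a, -2.89 for Vldlr and 1.87 for Fabp5 within the lower level and -1.18, -1.27 and 1.43 within the higher level. On HFD it was -1.86 for Cd36 within the lower level and -0.63 within the higher level. Among libraries of the higher class at the 8 loci, 3 Mlkl-/- HFD livers against 1 Mlkl-/- ND liver gave 2.36 for Pltp, 3.96 for Vldlr, 1.95 for Fabp2 and 1.53 for Mfsd2a. Among those of the lower class, 1 wild-type HFD liver against 3 wild-type ND livers gave 1.91 for Pltp, 1.92 for Vldlr, 1.22 for Fabp2 and 2.04 for Cd36. For the genotypes on ND, the lower class gave -1.43 for Mfsd2a, -1.53 for Vldlr, 1.27 for Fabp5 and -0.99 for Pltp. With the lower or higher title code level as a term in the fit, the members called for diet were the same except Cd36 in wild-type livers (adjusted p = 0.0522). That term rests on the assumed pairing and cannot separate the codes from diet. With the class as a term in the fit, Pltp and Fabp2 were called for diet in both genotypes and Vldlr in Mlkl-/- livers, and all 3 on average. In that fit the adjusted p of Mfsd2a was 0.142 in Mlkl-/- livers and 0.111 on average, that of Vldlr was 0.0504 in wild-type livers, and that of Cd36 was 0.0884 in wild-type livers and 0.104 on average.

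**Figure D4:**
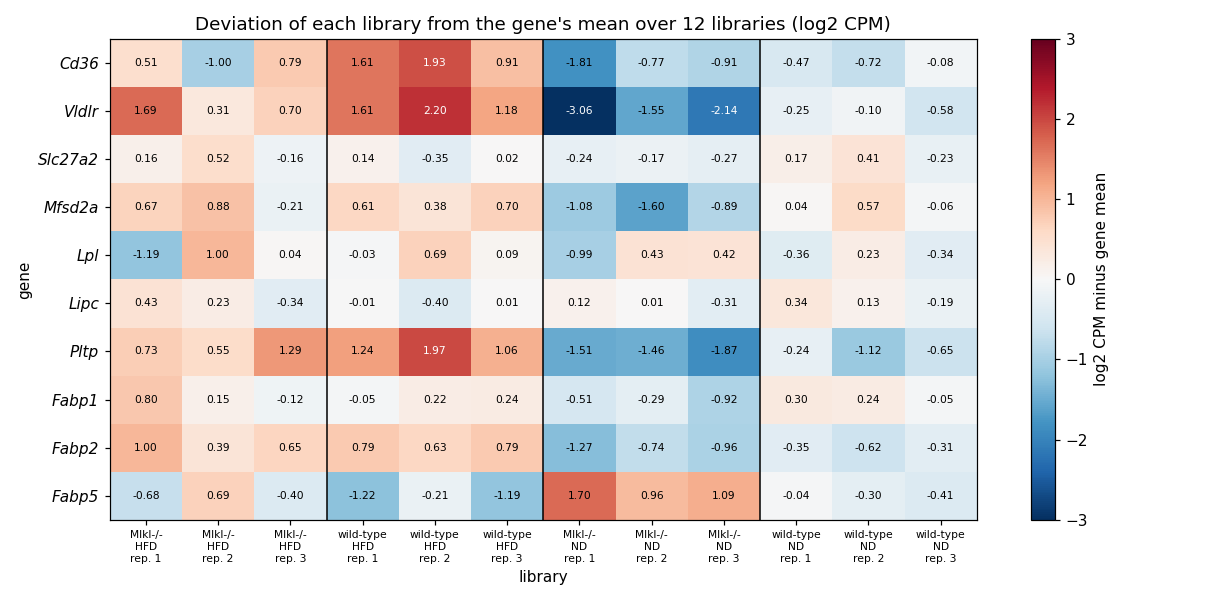
Log2 CPM of each gene (rows) in each of the 12 livers (columns), as the difference from that gene's mean over the livers; colour gives the log2 difference. Pltp, Vldlr and Fabp2 are higher in each of the 6 HFD columns than in any of the 6 ND columns, and Slc27a2 and Lipc vary least, with a root mean square deviation of 0.27 and 0.259.

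Deviations from each gene's own mean over the 12 livers showed how far the members resembled each other and other genes. The root mean square deviation on the log2 scale was 1.56 for Vldlr, 1.25 for Pltp, 1.10 for Cd36, 0.879 for Fabp5, 0.77 for Mfsd2a, 0.758 for Fabp2 and 0.617 for Lpl, and it was 0.422 for Fabp1. Likeness to 9073 other genes with a mean of at least 5 CPM was measured as the root mean square difference of these deviations over the 12 livers, where a lower value is more alike. The nearest genes to Cd36 were Rdh16 at 0.384 and Scd1 at 0.433. Vnn1 came first for both Vldlr, at 0.673, and Pltp, at 0.40, with Cyp4a14 next for Vldlr at 0.712 and Acacb next for Pltp at 0.487. Fabp2 lay nearest to Elovl5 at 0.32 and Fads1 at 0.327, and Mfsd2a nearest to Hnf1aos1 at 0.353 and Pcsk4 at 0.406. Fabp5 lay nearest to Cpeb2 at 0.447 and Serpina11 at 0.517, and Lpl to Fmn1 at 0.247 and Myh10 at 0.352. Fabp1 lay nearest to Gstt1 at 0.205 and Nectin2 at 0.216. Slc27a2 (Marc1 at 0.119, Rxrb at 0.128) and Lipc (Ubxn1 at 0.123, Aurkaip1 at 0.126) varied so little that many genes are near them.

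The wider pathways were described through 7 lists of related genes. Their counts stand beside the shares of all genes tested that were called for diet in either direction. These were 0.359% in Mlkl-/- livers, 4.23% in wild-type livers and 7.19% on average. Among 14 tested genes of intravascular lipolysis, Apoc2, the cofactor of lipoprotein lipase, rose on HFD by 1.18 on the log2 scale in Mlkl-/- livers (adjusted p = 0.0246) and by 0.89 in wild-type livers (adjusted p = 0.0236). Of this list, 1 gene was called higher and 0 lower in Mlkl-/- livers, and 1 higher and 1 lower in wild-type livers, where Apoc1, an apolipoprotein that restrains lipolysis, fell by 0.73 (adjusted p = 0.0311). Averaged over the genotypes 3 rose, among them Lipg, the endothelial lipase gene, by 1.15 (adjusted p = 0.0435). Of 16 lipoprotein receptors and regulators, 0 were called in Mlkl-/- livers and 2 fell in wild-type livers: Lrp2, the megalin gene, by 1.85 (adjusted p = 0.0238), and Sdc1, a heparan sulfate proteoglycan that clears remnants, by 0.66 (adjusted p = 0.0247). On average over the genotypes 0 of them rose and the same 2 fell.

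Of 12 fatty acid transport proteins and acyl-CoA synthetases, 0 were called in either genotype and 2 were called higher on average, the FATP1 gene Slc27a1 by 0.75 (adjusted p = 0.0309) and the medium-chain acyl-CoA synthetase gene Acsm3 by 0.33 (adjusted p = 0.041). Of 8 other intracellular lipid binding proteins, 0 were called in either genotype and 2 were called higher on average, the phosphatidylcholine transfer protein gene Pctp by 0.73 (adjusted p = 0.00337) and Stard4, a sterol carrier, by 0.50 (adjusted p = 0.0477). Among 12 genes of HDL and phospholipid handling, 0 were called in Mlkl-/- livers and 1 rose and 1 fell in wild-type livers: Abcb4, the phosphatidylcholine exporter of bile, by 0.53 higher (adjusted p = 0.028) and Apom, which carries sphingosine phosphate on HDL, by 0.84 lower (adjusted p = 0.0373). Of 13 genes of caveolae and CD36 partners, 1 was called, the caveolin gene Cav2, which fell by 1.51 in Mlkl-/- livers (adjusted p = 0.0458). Of 19 nuclear receptors and factors, Pparg, the receptor that drives fat storage genes, had a difference of 0.73 in Mlkl-/- livers (adjusted p = 0.354) and rose by 1.20 in wild-type livers (adjusted p = 0.0496). It rose by 0.97 on average (adjusted p = 0.0233), and no other gene of that list was called. Median log2 diet differences of the lists ran from -0.31 to 0.26 in Mlkl-/- livers and from -0.24 to 0.21 in wild-type livers, against -0.02 and -0.01 for all genes tested. Among all genes tested, 0.359% were called for diet in Mlkl-/- livers, 4.23% in wild-type livers and 7.19% on average. For the genotype comparisons and the interaction, 0 genes of the 7 lists were called by edgeR. The shares of all genes there were 0.0276% on HFD, 0.00553% on ND, 0.0166% averaged over the diets and 0% for the interaction.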

How the data were processed

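Liver RNA from 12 mice was sequenced with Lexogen's QuantSeq 3' kit from 100 ng of total RNA, per the labels' protocols. Raw counts per Ensembl gene and library, without normalization, were deposited by the authors in 1 table. Per the submitters' processing notes, reads were handled with HISAT2, featureCounts, limma and cutadapt 1.9 on mm10. How strand and multiply matching reads were treated is not stated in what was used here. Of 51912 identifiers, 51633 had a symbol, and 21194 had 0 counts in all libraries.

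Genotype and diet labels gave the groups. A mean per group was fitted to all 12 libraries with edgeR 4.0.16 in R 4.3.3 (TMM, filterByExpr with a minimum of 10 counts and 15 in total, robust glmQLFit, glmQLFTest, 8 residual degrees of freedom). P-values for 7 contrasts were adjusted by Benjamini and Hochberg over 18098 genes. The procedure was tested on simulated data for the wild-type diet contrast, where 72% of 100 genes changed by 1 on the log2 scale were called, and 100% of those changed by 2. The text names every member, up to 4 called genes per related list, and the 2 genes nearest to each member. Members and lists were chosen with earlier results of these data known. Alternatives were RLE factors, no filter, DESeq2 1.42.0, the title code level or the 8-locus class as a term, and leaving out each library. Every pair of libraries in a group differed beyond sampling noise (chi-square per degree of freedom 19.4 to 137). Counting errors cover sampling only. Positions come from the GENCODE annotation of mm10, and figures were drawn with matplotlib 3.10.9.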

Additional observations from a re-analysis of the deposited data

How the results depend on the processing

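Of 840 member results with 1 library left out, 792 kept direction and call and 27 changed sign, and of 350 under the 5 other settings 327 kept both and 4 changed sign; none of the sign changes was in a called result. Members called ranged over the fits with 1 library left out from 2 to 6 for diet in Mlkl-/- livers (2 without Mlkl-/- ND replicate 3), 2 to 4 in wild-type livers (2 without any wild-type ND replicate or wild-type HFD replicate 2), 5 to 6 for diet on average and 0 to 1 for genotype on ND. Genes called ranged from 13 to 729 and 63 to 1233 for diet in Mlkl-/- and wild-type livers, 616 to 2029 on average, 0 to 189 and 0 to 6 for genotype on HFD and ND, 1 to 33 for genotype on average and 0 to 4 for the interaction, against 65, 766, 1302, 5, 1, 3 and 0 with all libraries. With no filter, 171 genes were called for diet in Mlkl-/- livers, 124, 10 and 74 for genotype on HFD, on ND and on average, and 1 for the interaction, and 1 member, Vldlr, for genotype on average. DESeq2 called 495 and 1433 genes for diet in Mlkl-/- and wild-type livers, 381, 43 and 201 for genotype on HFD, on ND and on average and 48 for the interaction, with 3 and 4 members for genotype on ND and on average. Adding the title code level as a term gave 3, 2 and 13 genes called for genotype on HFD, on ND and on average. With the 8-locus class as a term, 27 and 158 genes were called for diet in Mlkl-/- and wild-type livers, 122 on average, 8 and 3 for genotype on HFD and ND and 2 for the interaction, with 2 members for diet in wild-type livers and 3 on average. The cause of these shifts was not tested.

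Signs changed in results near 0. With the title code level, Fabp1 for diet in wild-type livers and Lpl for genotype on HFD were both 0.05. With the 8-locus class, Lpl and Fabp2 for genotype on HFD were 0.03 and 0.05. With 1 library left out, Fabp1 ranged from -0.12 to 0.06 for diet in wild-type livers and -0.12 to 0.37 for genotype on HFD, where Fabp2 ranged from -0.21 to 0.09, Mfsd2a from -0.28 to 0.21 and Lpl from -0.74 to 0.31. Lpl also ranged from -0.51 to 0.51 for diet in Mlkl-/- livers, -0.03 to 0.47 on average, -0.26 to 0.27 for genotype on average and -0.96 to 0.09 for the interaction. Lipc ranged from -0.11 to 0.07 for diet and -0.03 to 0.15 for genotype on average, and Slc27a2 from -0.16 to 0.02 for genotype on average. No paired analysis was possible because the labels give no replicate number that ties single livers of different groups together. The title code, which the genotypes share within a diet, marks several livers. Only its lower or higher level, by the assumed pairing across diets, was fitted as a term. The 3 livers per group limit these tests, and Vldlr is limited by its low counts.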
